A study of Homo sapiens with 2 samples.

Results

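LGR5 and 8 further genes of the Wnt feedback circuit were compared between cells exposed to a flame retardant with titanium dioxide nanoparticles and control cells. The 9 genes, LGR5, LGR4, RNF43, ZNRF3, AXIN2, NKD1, SP5, TCF7 and LEF1, are the rows with these symbols and the class protein-coding, out of 58735 genes in the deposited table. LGR5 was chosen because its value was already known to be among the lowest of this comparison, so all values below are a description and none is a test. The 2 groups were SH-SY5Y cells exposed for 24 h to TDCPP and TiO2 NPs together, where TDCPP is a chlorinated phosphate ester used as a flame retardant, and SH-SY5Y cells labelled control (Ctrl), with 1 library each. SH-SY5Y is an established neuroblastoma line, kept in DMEM with serum. The labels give no dose, no vehicle, no genetic change beyond the line itself and no library of either agent alone, so the agents cannot be told apart.

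Wnt proteins bind frizzled receptors and LRP co-receptors at the cell surface and keep a cytoplasmic complex of APC, axin and GSK3 from destroying beta-catenin. Beta-catenin then enters the nucleus and switches on target genes together with factors of the TCF and LEF family. Several of these targets feed back on the pathway: the ligases RNF43 and ZNRF3 remove frizzled from the surface, AXIN2 rebuilds the destruction complex, NKD1 acts on Dishevelled and SP5 represses other targets. LGR4 and LGR5 are receptors of R-spondins, which take RNF43 and ZNRF3 off the surface. LGR5 is best known as a marker of stem cells of the intestinal crypt.

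The libraries held 15315572 reads in exposed cells and 16471438 reads in control cells, counted on annotated genes. Reads are those behind the deposited values, recovered as whole numbers. Levels are given as FPKM, fragments per kilobase of exon and per unit of library size. The log2 ratio is that of exposed over control FPKM with a pseudocount of 1 added to each, and the read ratio is the same comparison without a pseudocount, with a 95% interval for counting error only. Genes were called measured when protein-coding and at a mean FPKM of at least 1 over both libraries, which 11409 genes and 8 of the 9 members reached. NKD1 did not, and RNF43, at a mean of 1.01 FPKM, did so only through its control value. With 1 library per group no difference has a replicate check, and a lower value in a bulk library cannot separate fewer cells of a type from less RNA per cell.

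The labelled cell type was checked against marker lists. Of 14 noradrenergic neuroblastoma markers 6 were measured, and all 14 summed to 24.1 FPKM in exposed and 34.7 FPKM in control cells. The catecholamine synthesis gene TH and the identity factor gene PHOX2A had 0 reads in both libraries, and such a zero is compatible with as many as 3 reads, which is 0.196 RPM (reads scaled to library size) in exposed and 0.182 RPM in control cells. Of 10 pan-neuronal markers 2 were measured, and all 10 summed to 60.5 FPKM in exposed and 76.6 FPKM in control cells. STMN2, INA and ELAVL4 had 0 reads in both libraries. The defining markers of the labelled line were thus mostly absent, in both libraries alike. Of 8 markers of the mesenchymal neuroblastoma state 6 were measured, and all 8 summed to 102 FPKM in exposed and 119 FPKM in control cells. Of 7 epithelial markers 3 were measured, the keratin genes KRT8, KRT18 and KRT19, and the list summed to 412 FPKM in exposed and 620 FPKM in control cells, while CDH1 had 10 reads in exposed and 4 reads in control cells and EPCAM had 5 in exposed and 3 in control cells. Among measured markers the read ratios were 0.600 for GATA2, 0.584 for ISL1, 0.734 for TBX2 and 0.765 for HAND1 of the noradrenergic list, and 0.749 for NEFL and 2.17 for MAP2 of the neuronal list. In the mesenchymal list they were 0.706 for WWTR1, 0.704 for TWIST1, 0.757 for FN1 and 0.817 for NOTCH2, and in the epithelial list 0.635 for KRT18, 0.652 for KRT19 and 0.687 for KRT8. The other 4 epithelial markers were not measured and had more reads in exposed cells, among them ESRP1 with 71 in exposed and 9 in control cells and CLDN4 with 44 in exposed and 28 in control cells, so the lower sum of that list rests on the keratins. Likewise the lower sum of the neuronal list rests on NEFL, at 55.5 FPKM in exposed and 74.0 FPKM in control cells. MAP2 was higher, at 4.19 FPKM in exposed and 1.93 FPKM in control cells. Of the unmeasured neuronal markers, SYP, SNAP25, TUBB3 and ELAVL3 had more reads in exposed cells and NEFM had fewer. The summed levels of all 4 lists were lower in exposed cells, and their part in the values of the Wnt genes was not tested.

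LGR5, LGR4, AXIN2, TCF7, NKD1 and RNF43 were lower in exposed than in control cells beyond counting error. For RNF43 this did not hold under 2 of the 4 other scalings. ZNRF3, SP5 and LEF1 had intervals that included a ratio of 1. With many reads even a small difference passes, as the intervals of LRP5 (0.875 to 0.988) and AXIN1 (1.04 to 1.204) also left out 1. The share of all measured genes with such an interval was not counted, so passing does not set the members apart. LGR5 was the 1 measured member at least 2-fold lower, and no measured member was at least 2-fold higher. Over all 11409 measured genes the lower side of this rule held 15, a share of 0.131%, and the higher side 75, a share of 0.657%. At 1.5-fold in log2 ratio, LGR5, LGR4 and AXIN2 were lower and no measured member was higher. The background shares at this size were 2.16% lower and 2.53% higher. These calls sit close to the limit. AXIN2 was short of 1.5-fold under 3 of the 4 other scalings, at -0.51 with equal FPKM sums, -0.57 with the trimmed mean of log ratios and -0.54 with library totals alone. LGR4 was short of it with equal FPKM sums, at -0.58, and both were short of it with a pseudocount of 5, at -0.27 for AXIN2 and -0.57 for LGR4. The pseudocount of 1 also decides which genes are named. Without it, the read ratios of TCF7, 0.565, and NKD1, 0.521, were lower than that of LGR4, 0.601. The 9 members had a median log2 ratio of -0.27 and the 8 measured ones -0.39, beside a median of -0.05 over all measured genes. Because LGR5 was picked on this contrast, nothing is read from these shares.

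**Figure D1:**
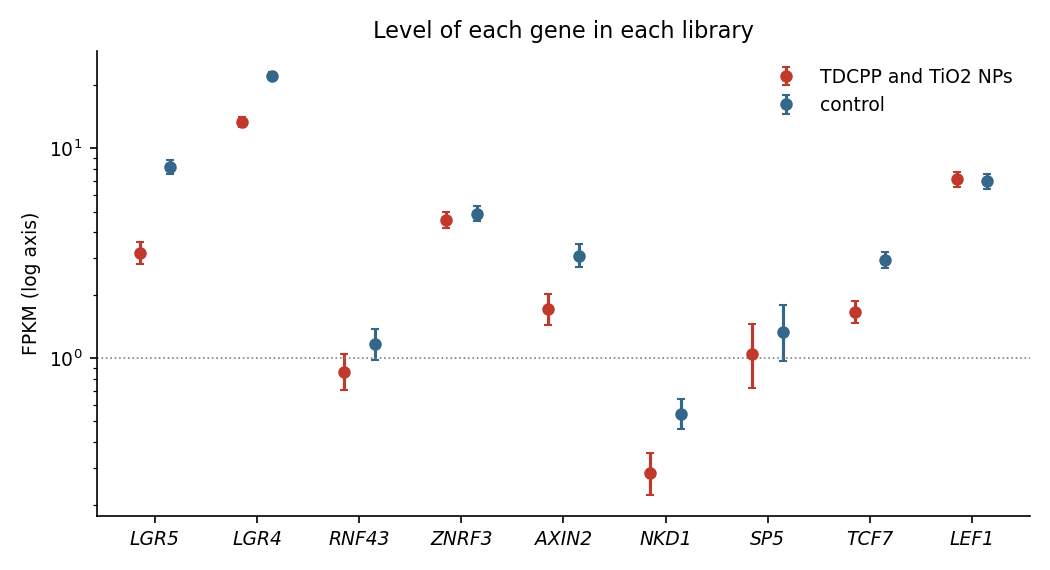
Level of each of the 9 genes in the exposed library (left point of each pair) and the control library (right point), in FPKM on a log axis. Bars are 95% Poisson intervals, which cover counting error only, and the dotted line marks 1 FPKM. LGR5 stood at 3.18 FPKM in exposed and 8.14 FPKM in control cells, whereas LEF1, at 7.12 FPKM in exposed and 6.95 FPKM in control cells, had overlapping intervals.

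Both measured R-spondin receptor genes were lower. LGR5 (ENSG00000139292, GRCh38 chromosome 12, 71439770 to 71586310, plus strand) had 263 reads in exposed and 684 reads in control cells, or 3.18 and 8.14 FPKM. Its read ratio was 0.390 (0.337 to 0.450) and its log2 ratio -1.13. The 2 levels are far apart relative to their counting error, and the whole interval lies under 0.5. Only 8 of the 11409 measured genes had a lower log2 ratio, and among the 5080 other measured genes whose mean FPKM was within 2-fold of that of LGR5, 6 had a log2 ratio as low or lower.

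LGR4 (ENSG00000205213, chromosome 11, 27365961 to 27472775, minus strand), the more widely expressed relative of LGR5, had the highest level of the 9 genes. It stood at 13.3 FPKM in exposed and 22.2 FPKM in control cells, from 1334 and 2250 reads. The read ratio of 0.601 (0.562 to 0.644) is the most precise of the set, and 121 measured genes, 1.06% of them, had a lower log2 ratio than its -0.69. Per kilobase, both receptors together came to 16.5 FPKM in exposed and 30.3 FPKM in control cells. LGR5 made up 19.2% of that sum in exposed and 26.8% in control cells. The read ratio of LGR5 was 0.649 times that of LGR4 (0.552 to 0.761), so LGR5 was lower by a larger factor than LGR4 in this pair of libraries. Their ligands were nearly undetected. RSPO1 had 0 reads in both libraries, RSPO2 had 3 in each, RSPO3 had 2 in exposed and 6 in control cells, and RSPO4 had 14 in exposed and 4 in control cells. The third receptor gene of the family, LGR6, had 16 reads in exposed and 9 reads in control cells.

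Of the ubiquitin ligases that remove frizzled receptors, ZNRF3 did not differ beyond counting error and RNF43 was lower by a small margin. ZNRF3 (ENSG00000183579, chromosome 22, 28883592 to 29057487, plus strand) stood at 4.58 FPKM in exposed and 4.89 FPKM in control cells, from 503 and 545 reads. Its read ratio of 0.936 (0.828 to 1.06) spanned 1, and its log2 ratio of -0.08 became 0.02 when the FPKM of both libraries were scaled to equal sums. RNF43 (ENSG00000108375, chromosome 17, 58352500 to 58417595, minus strand) was the weaker of the pair, at 0.862 FPKM in exposed and 1.17 FPKM in control cells. With 102 reads in exposed and 140 reads in control cells its read ratio was 0.739 (0.567 to 0.961). That interval ends just under 1, and its upper end was 1.05 with FPKM scaled to equal sums and 1.02 with library totals alone. The interval of RNF43 relative to ZNRF3, 0.789 (0.589 to 1.06), did not separate these relatives. RNF43 shares 4326 exon bases with AC004687.2, an overlapping protein-coding annotation on the same strand that had 12 reads in exposed and 15 reads in control cells, so some of its reads may have been assigned there.

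**Figure D2:**
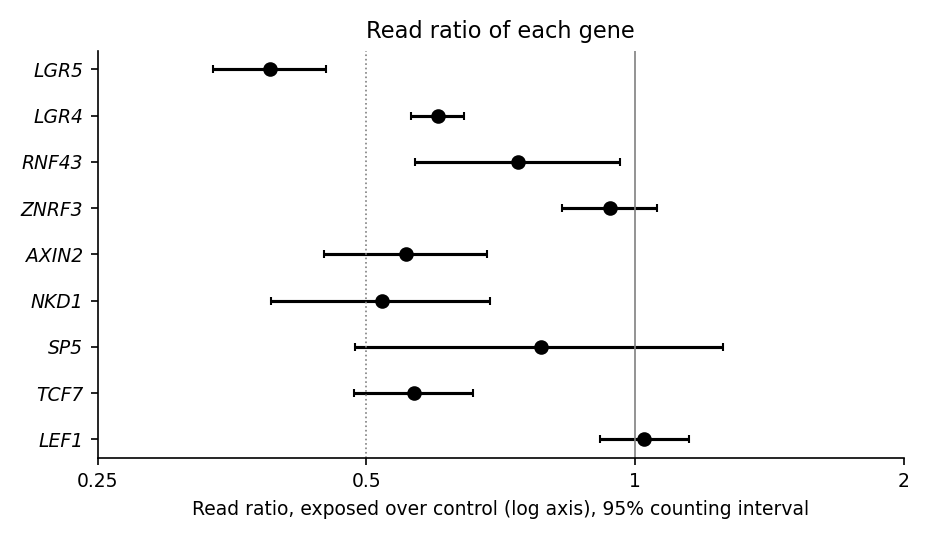
Read ratio of each gene, exposed over control, on a log axis with 95% counting intervals, a solid line at 1 and a dotted line at 0.5. The interval of LGR5 (0.337 to 0.450) lies wholly left of 0.5, the intervals of LGR4, RNF43, AXIN2, NKD1 and TCF7 end below 1, and those of ZNRF3, SP5 and LEF1 cross 1.

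The cytoplasmic inhibitors were both lower at about the same ratio. AXIN2 (ENSG00000168646, chromosome 17, 65528563 to 65561647, minus strand), widely used as a readout of beta-catenin activity, stood at 1.71 FPKM in exposed and 3.09 FPKM in control cells, from 141 and 258 reads. Its read ratio was 0.554 (0.448 to 0.683). The log2 ratio of AXIN2 was -0.59, and 2.05% of measured genes lay lower. NKD1 (ENSG00000140807, chromosome 16, 50548330 to 50649249, plus strand), the inhibitor that binds Dishevelled, had 78 reads in exposed and 152 reads in control cells, spread over an annotated exon length of 17425 bases. That gave 0.284 and 0.545 FPKM and a read ratio of 0.521 (0.391 to 0.688). The pseudocount pulls this low gene towards 0, to a log2 ratio of -0.27, whereas its log2 ratio with a pseudocount of 0.1 was -0.75. Its relative NKD2, which is expressed at a higher level per kilobase, stood at 5.60 FPKM in exposed and 7.26 FPKM in control cells, a read ratio of 0.772 (0.654 to 0.911).

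Among the transcription factor genes TCF7 was lower and LEF1 was not. TCF7 (ENSG00000081059, chromosome 5, 134114711 to 134151865, plus strand), which encodes the factor TCF1, stood at 1.66 FPKM in exposed and 2.94 FPKM in control cells, from 264 and 474 reads. Its read ratio was 0.565 (0.484 to 0.658). LEF1 (ENSG00000138795, chromosome 4, 108047545 to 108168956, minus strand), a close relative with the same DNA-binding domain type, stood at 7.12 FPKM in exposed and 6.95 FPKM in control cells, from 602 and 596 reads. Its read ratio was 1.02 (0.913 to 1.15), and it was the 1 member above 0 in log2 ratio, at 0.03. The read ratio of TCF7 was 0.551 times that of LEF1 (0.455 to 0.669), and the share of TCF7 in their summed FPKM was 18.9% in exposed and 29.8% in control cells. TCF7 shares 210 exon bases with SKP1 on the opposite strand, a gene with 2745 reads in exposed and 3568 reads in control cells, and the sources used here do not state whether counting used strand. The other factors of the family, TCF7L2 and TCF7L1, named after their values were seen, had read ratios of 1.05 (0.929 to 1.18) and 0.786 (0.655 to 0.942).

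SP5 (ENSG00000204335, chromosome 2, 170715351 to 170718078, plus strand), a zinc finger repressor and direct beta-catenin target, had the fewest reads of the set. Its 34 reads in exposed and 44 reads in control cells gave 1.05 and 1.34 FPKM. The read ratio of 0.784 (0.486 to 1.25) left both a 2-fold lower and an equal level within counting error. The region upstream of SP5 is shown because it holds the densest run of TCF and LEF recognition letters among the 5 members searched. The 250 bases before each listed RefSeq start (GRCh38.p14) were searched for the letters CTTTG followed by 2 more that are each A or T, on both strands, with overlapping matches allowed. Of the 9 members 5 had a window there, and matches were found in SP5 and in 1 of the 2 windows of TCF7. Capitals mark the matches in these plus-strand sequences, SP5 at chr2:170715087-170715336 and TCF7, before the second of its listed starts, at chr5:134123368-134123617.
SP5: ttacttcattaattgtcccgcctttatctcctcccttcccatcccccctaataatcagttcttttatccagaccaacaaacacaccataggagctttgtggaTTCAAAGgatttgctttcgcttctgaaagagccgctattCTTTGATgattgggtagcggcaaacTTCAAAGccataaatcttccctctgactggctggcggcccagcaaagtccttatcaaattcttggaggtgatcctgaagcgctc
TCF7: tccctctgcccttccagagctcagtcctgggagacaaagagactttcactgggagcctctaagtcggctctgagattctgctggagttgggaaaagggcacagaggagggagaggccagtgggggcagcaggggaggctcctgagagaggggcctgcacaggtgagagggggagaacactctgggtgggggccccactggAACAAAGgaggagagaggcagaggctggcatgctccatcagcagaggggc
In SP5 the 3 matches lie 148 to 142, 109 to 103 and 84 to 78 bases before the start, and in TCF7 the match lies 50 to 44 bases before it. At least 1 match was present in 12.0% of the 35116 RefSeq windows of this length, and at least 3 in 43 windows, or 0.122%. The windows of LGR4, RNF43 and LEF1 held none of these letters, and those of LGR5, AXIN2, ZNRF3 and NKD1 were not used here. A match is a run of letters and not a shown binding site, and the member with 3 matches was also the one with the widest interval.

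The order of levels was compared within each library, per kilobase. In exposed cells it ran LGR4, LEF1, ZNRF3, LGR5, AXIN2, TCF7, SP5, RNF43 and NKD1. In control cells it ran LGR4, LGR5, LEF1, ZNRF3, AXIN2, TCF7, SP5, RNF43 and NKD1. LGR5 was thus in place 4 in exposed and place 2 in control cells, and the other 8 genes kept their order. AXIN2 and TCF7 had overlapping 95% Poisson intervals in both libraries, as did SP5 and RNF43, and all other neighbours in either order lay apart.

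**Figure D3:**
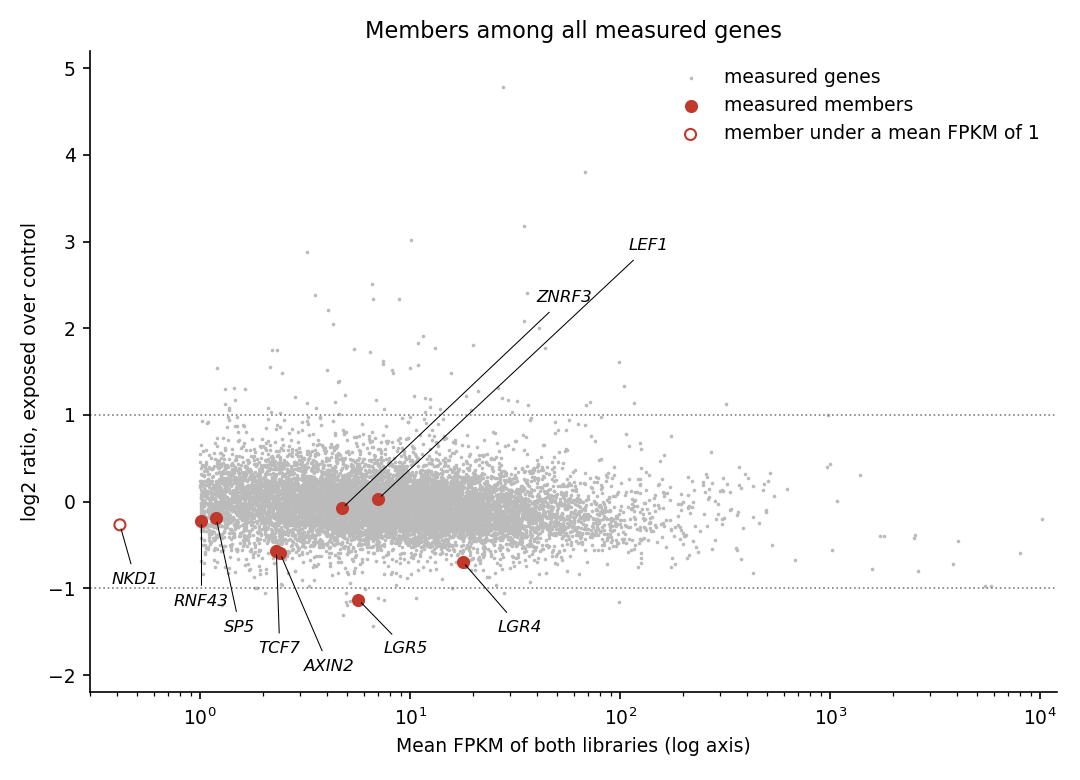
Log2 ratio of exposed over control against mean FPKM (log axis) for the 11409 measured genes (grey) and the members (red, open for NKD1, which lies under a mean FPKM of 1). Dotted lines mark 2-fold. LGR5 lies under the lower line at -1.13, LGR4 at -0.69 is near the lower edge of genes of its level, and ZNRF3 and LEF1 lie in the middle of the cloud.

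Genes with a pattern most like that of LGR5 were taken as the 5 protein-coding genes with the nearest log2 ratio among those within 2-fold of its mean FPKM. With 2 libraries this likeness is only a similar level and a similar ratio. They were EIF3C, a translation initiation factor subunit gene, at -1.13, RGCC, a regulator of the cell cycle, at -1.14, SMAD6, an inhibitor of BMP signalling, at -1.11, carbonic anhydrase gene CA2 at -1.11 and RAB26, of the RAS oncogene family, at -1.15. The read ratio of SMAD6 was 0.426 (0.393 to 0.462), from 863 reads in exposed and 2054 reads in control cells. RAB26 had a read ratio of 0.372 (0.295 to 0.467). The value of EIF3C is uncertain, since a near-identical copy, EIF3CL, can take its reads.

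The rest of the pathway was described from 8 lists of Wnt genes, of which 121 genes were in the table and 84 were measured. None of the 84 was at least 2-fold lower or higher, beside 0.131% lower and 0.657% higher of all measured genes. At 1.5-fold, 8 were lower, 9.52% of them beside 2.16% of all measured genes, and 0 were higher beside 2.53%. One of the 8, WNT6, was measured only through its control value, so its place on the lower side is partly set by the filter. These counts and those below use the log2 ratio with a pseudocount of 1, and the read ratio of a low gene can lie further from 1. Their median log2 ratio was -0.16 beside -0.05 over all measured genes. Receptors, ligands and target genes held all 8 lower genes, and the other lists held none. Each list had at most 20 measured genes, so with shares of 2.16% and 2.53% over all genes a count of none is not read as a result, here or below.

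Of 19 Wnt ligand genes 7 were measured, with a median log2 ratio of -0.42, which was -0.24 with a pseudocount of 5 and -0.11 without a filter on low values. The 3 at least 1.5-fold lower, beside 2.16% of all measured genes, were WNT6, WNT5A and WNT10B. WNT6 entered this count and the median only through its control value. WNT5A, a ligand mostly of beta-catenin-independent signalling, stood at 3.34 FPKM in exposed and 6.06 FPKM in control cells, a read ratio of 0.552 (0.487 to 0.625). WNT6, at 0.707 FPKM in exposed and 2.02 FPKM in control cells, had 19 reads in exposed and 55 reads in control cells, a ratio of 0.350 (0.196 to 0.600), and WNT10B had 92 in exposed and 163 in control cells, a ratio of 0.573 (0.439 to 0.744). WNT11 stood at 0.695 (0.554 to 0.870). The ligand values went both ways, since WNT3, named after its value was seen, was higher at 1.35 (1.14 to 1.604). Of the 2 genes for making and releasing ligands, PORCN, which attaches the lipid, stood at a read ratio of 1.21 (0.990 to 1.49) and the carrier gene WLS at 0.962 (0.899 to 1.03).

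Frizzled receptor genes were lower throughout. All 9 measured of the 10 frizzled genes had log2 ratios below 0, between -0.66 and -0.13, and all 9 stayed below 0 under each pseudocount and scaling tried; this family was singled out after its values were seen, and 58.1% of all measured genes were below 0. Their summed level was 80.2 FPKM in exposed and 103 FPKM in control cells. FZD4 had a read ratio of 0.521 (0.438 to 0.619) and FZD1 of 0.577 (0.503 to 0.661), and these were the members of the receptor list at least 1.5-fold lower. FZD8 stood at 0.666 (0.591 to 0.750) and FZD7 at 0.700 (0.630 to 0.777). The co-receptor genes LRP5 and LRP6, named after their values were seen, had read ratios of 0.930 (0.875 to 0.988) and 1.02 (0.961 to 1.09), and FZD6, also named afterwards, 0.910 (0.850 to 0.975). Over the receptor list of 15 measured genes the median log2 ratio was -0.26.

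Few of the secreted and membrane antagonists were measured. Of 18 antagonist genes 4 were measured, with a median log2 ratio of -0.22 and none at 1.5-fold on that scale. SFRP1, which binds Wnt proteins outside the cell, had 225 reads in exposed and 350 reads in control cells, a read ratio of 0.652 (0.549 to 0.773). KREMEN1 stood at 0.802 (0.732 to 0.878), DKK3 at 0.838 (0.644 to 1.09) and KREMEN2 at 1.04 (0.843 to 1.29). DKK1, an inhibitor of LRP5 and LRP6 and itself a Wnt target, was not measured but is named after its value was seen, with 12 reads in exposed and 41 reads in control cells and a ratio of 0.297 (0.142 to 0.576). Other unmeasured antagonists, also named after their values were seen, went both ways. SOSTDC1 stood at a ratio of 0.449 (0.262 to 0.746), NOTUM at 1.28 (0.820 to 2.02) and TRABD2A at 1.20 (0.909 to 1.58).

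Genes of Dishevelled and of the destruction complex had a median close to that of all genes. All 20 of this list were measured, none reached 1.5-fold in log2 ratio, and the median of -0.01 became 0.09 with FPKM scaled to equal sums. APC2 had the largest value, a read ratio of 1.77 (1.44 to 2.17) at 1.33 FPKM in exposed and 0.754 FPKM in control cells, and it was measured only through its exposed value. The ligase gene RNF146 stood at 1.24 (1.07 to 1.42) and the scaffold gene APC at 0.781 (0.722 to 0.844). AXIN1, the constitutive relative of AXIN2 and named after its value was seen, stood at 1.12 (1.04 to 1.204), so the 2 axin genes had intervals on opposite sides of 1.

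Beta-catenin's own gene was lower. CTNNB1 stood at 28.3 FPKM in exposed and 40.7 FPKM in control cells, a read ratio of 0.696 (0.672 to 0.720) from 5331 and 7773 reads. Of the 16 nuclear genes, all measured, none reached 1.5-fold in log2 ratio with the pseudocount, and the median log2 ratio was -0.16. The corepressor gene TLE2 had a read ratio of 0.568 (0.430 to 0.747), the coactivator gene BCL9 0.758 (0.691 to 0.831) and CBY1, an antagonist of beta-catenin, 1.38 (1.13 to 1.68).

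Other known Wnt targets were mostly lower. In all, 20 of the 25 found were measured, with 17 below 0, as were 58.1% of all measured genes. Their median log2 ratio was -0.37, beside -0.05 over all measured genes. It was -0.21 with a pseudocount of 5 and also with equal FPKM sums. At least 1.5-fold lower were 3 of the 20, beside 2.16% of all measured genes. These were the homeobox gene MSX2, with 501 reads in exposed and 901 reads in control cells and a read ratio of 0.564 (0.505 to 0.630), the receptor gene TNFRSF19 at 0.444 (0.344 to 0.568) and the cyclin gene CCND1 at 0.590 (0.558 to 0.624). BMP4 stood at 0.591 (0.461 to 0.755). MYC, named after its value was seen, was at 1.16 (1.06 to 1.27), so the targets did not all lie on one side. Many of these genes answer to other pathways as well, and the part of other inputs was not tested.

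**Figure D4:**
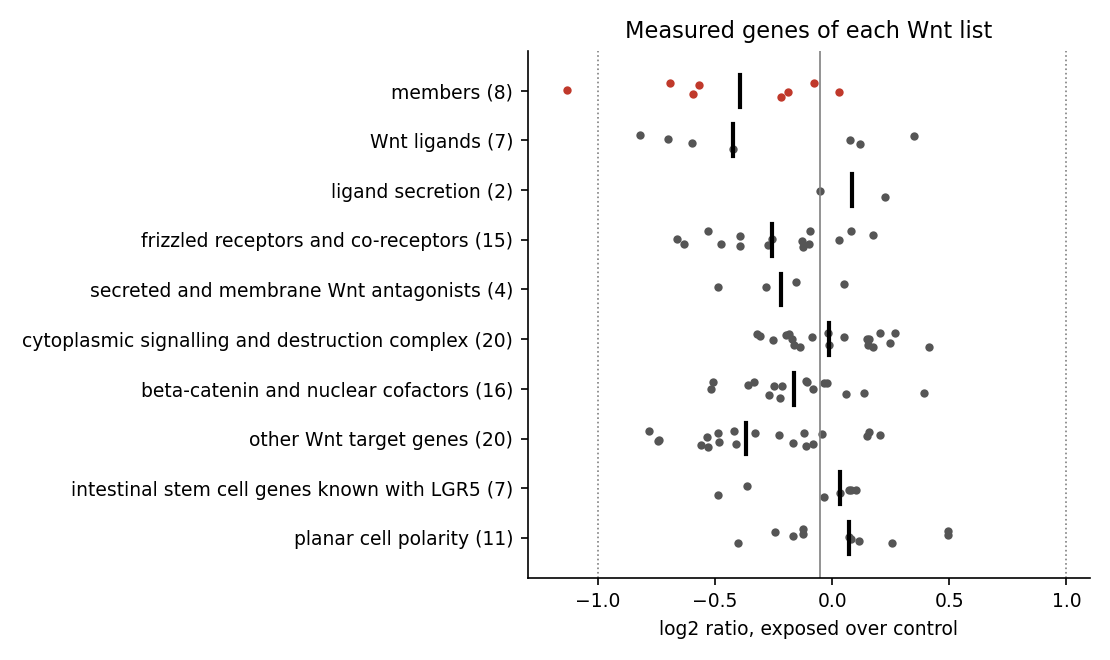
Log2 ratio of each measured gene (points) of the members and of 9 lists, with the number measured in brackets, the list median as a black bar, the median of all measured genes (-0.05) as a solid line and 2-fold as dotted lines. The vertical scatter within a list has no meaning. Medians of the members (-0.39), the ligands (-0.42) and the other targets (-0.37) lie left of the line, and those of the destruction complex (-0.01) and of planar polarity (0.07) lie near or right of it.

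Genes known to accompany LGR5 in intestinal stem cells had a median log2 ratio near that of all measured genes, -0.05. Of 12 listed 7 were measured, with a median log2 ratio of 0.03 and none at 1.5-fold on that scale. Of all measured genes only 2.16% were 1.5-fold lower and 2.53% higher, so none among so few genes is not read as a result. SOX9 had a read ratio of 0.654 (0.544 to 0.785) and the ephrin receptor gene EPHB3 0.691 (0.547 to 0.869), while CDCA7 stood at 1.08 (1.01 to 1.15) and EPHB2 at 1.09 (0.940 to 1.26). OLFM4 had 0 reads in both libraries and ASCL2, an intestinal stem cell factor, had 0 reads in exposed and 5 reads in control cells. Planar cell polarity genes, which act in a branch of Wnt signalling that does not use beta-catenin, had a median of 0.07 over 11 measured genes. None was at 1.5-fold in log2 ratio, which is likewise near the shares of all measured genes. In this list CELSR1 stood at 1.45 (1.37 to 1.53), FUZ at 1.48 (1.27 to 1.72), INTU at 1.34 (1.16 to 1.54) and PRICKLE1 at 0.613 (0.492 to 0.762).

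Annotations that overlap the members had few reads, apart from SKP1. AXIN2 shares 1316 exon bases with AC004805.1, a protein-coding annotation on the same strand with 0 reads in both libraries. The sources used here do not state how reads in shared exon bases were counted. The levels of AXIN2 and RNF43, and their places in the order of levels, may therefore be affected. The antisense RNA AC078860.1, which shares 208 exon bases with LGR5, had 2 reads in exposed and 12 reads in control cells, and AC090116.1, within an intron of LGR5, had 4 reads in exposed and 15 reads in control cells. Both were lower in exposed cells, as LGR5 was, and without a statement on strand the reads of AC078860.1 and LGR5 in the shared bases cannot be told apart. LEF1-AS1, which shares 279 exon bases with LEF1, had 13 reads in exposed and 9 reads in control cells.

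**Figure D5:**
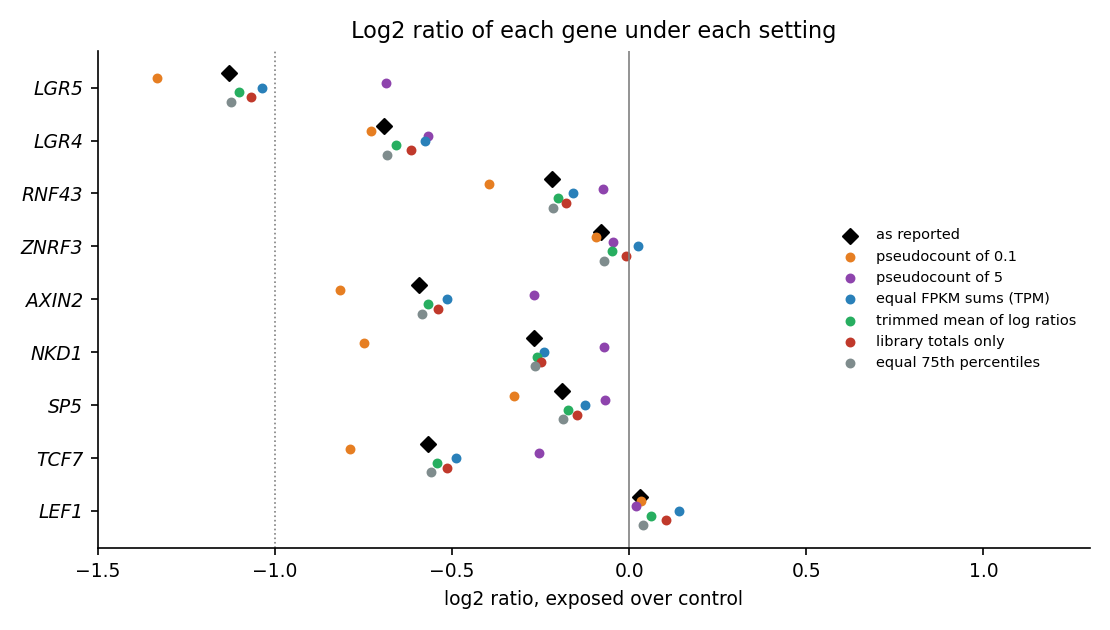
Log2 ratio of each gene, exposed over control, as reported (black diamonds) and under 2 other pseudocounts and 4 other scalings (coloured points), with a solid line at 0 and a dotted line at 2-fold lower. LGR5 stays left of -1 except with a pseudocount of 5, at -0.68, and ZNRF3 alone crosses 0.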

How the data were processed

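RNA sequencing had been done on 1 exposed and 1 control library. Per the labels' protocols, RNA was extracted with an RNeasy kit and libraries made with a SMARTer kit for messenger RNA. The deposited values are FPKM per gene. No source used here names the aligner or the counter. GRCm38 and mm10, both of mouse, stand in the submitters' processing notes, but 100% of the 58735 gene identifiers, starts, ends and merged exon lengths equalled those of GENCODE release 29 (GRCh38).

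FPKM times gene length fell on whole multiples of 1 step, within 0.001 reads, for 100% of values above 0, which gave the reads behind each value. The total used in each deposited FPKM was 1.03 times the exposed and 0.971 times the control reads, equal to median-of-ratios factors, so no further scaling was applied. Intervals of read ratios are Clopper-Pearson intervals of the exposed share of a gene's reads, those of pairs are conditional odds ratio intervals, and those of levels are exact Poisson intervals. All cover counting error only, compare libraries and not conditions, and treat reads as independent molecules. The recovery and the intervals were run on simulated Poisson reads built with the same formula. That checks the code only and says nothing about variation between real libraries. Named genes were all members, the up to 4 measured genes of each list with the largest absolute log2 ratio, the 5 genes most like LGR5, marker genes at or near 0, and genes stated as named after their values were seen. The members and lists were chosen with earlier results of these data known. Alternatives were other pseudocounts, scalings, filters and thresholds. Python 3.11.15, numpy 2.4.6, pandas 2.3.3 and scipy 1.17.1 were used.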

Additional observations from a re-analysis of the deposited data

How the results depend on the processing

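The count of 1 member at least 2-fold lower, LGR5, held under all 4 other scalings, without a filter, at a mean FPKM of at least 5 and with a pseudocount of 0.1. It became 0 with a pseudocount of 5 and with a 3-fold threshold, and 3 at 1.5-fold. No member was at least 2-fold higher under any of these settings. Among all measured genes, 54 were lower and 132 higher with a pseudocount of 0.1, 1 and 38 with a pseudocount of 5, 247 and 289 at 1.5-fold and 0 and 25 at 3-fold, beside 15 and 75 as reported, and 47 were higher at a mean FPKM of at least 5. Scaling to equal FPKM sums moved the median of all genes by 0.11, and only ZNRF3 among the members then changed sign, to 0.02. Of 54 member values under the other pseudocounts and scalings, 43 stayed within the counting interval and 11 moved outside it, 10 of them with another pseudocount. The log2 ratio of LGR5 ranged from -1.33 to -0.68. Of 55 list medians 42 moved by at most 0.1. The median of the receptor list, -0.26 as reported, was -0.15 with a pseudocount of 5, -0.16 with equal FPKM sums and -0.13 at a mean FPKM of at least 5. That of the other targets, -0.37, was -0.21 with a pseudocount of 5, -0.21 with equal FPKM sums and -0.22 without a filter. The antagonists went to -0.07 without a filter, and the nuclear genes to -0.06 with equal FPKM sums. The low reads of SP5, NKD1 and RNF43 limit what can be said of them. No paired analysis was possible because each group has 1 library.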
